A study of Homo sapiens with 8 samples.

Results

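CAOV-3, a human ovarian adenocarcinoma line, was compared with 3 other human ovarian cancer lines to find the genes that set it apart whatever the treatment. Its members were the 2 arrays labelled CAOV-3, of 8 arrays in the series. Of these, 1 came from cells given pI:pC (polyriboinosinic:polyribocytidylic acid, a synthetic double-stranded RNA) and 1 from untreated cells. The other 6 arrays were 1 treated and 1 untreated array each of SKOV-3, DOV-13 and OVCAR-3. All lines were grown in the same serum-containing medium. The labels state that several concentrations of pI:pC were used, without assigning one to an array, and give no treatment time. They also do not say whether an array held 1 culture or a pool. With 1 array per line and treatment, an error between repeat cultures of a line is not known.

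RNA was hybridised to Affymetrix arrays of 22277 probe sets, and the values are the authors' log2 expression levels made with RMA. The 11963 genes that could be named were each read from 1 probe set. Array medians lay between 6.19 and 6.30. The 2 CAOV-3 arrays correlated at 0.991, the lowest of the same-line pairs (up to 0.997), and arrays of different lines correlated at 0.880 to 0.941. The median gene was 0.067 lower in CAOV-3 than in the mean of the other lines, so the differences below are read against that value.

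Ovarian carcinomas arise from several epithelia, and their cell lines keep lineage transcription factors, surface glycoproteins and junction proteins to different degrees. TLR3 is the endosomal receptor for double-stranded RNA, and DCLK1 is a microtubule-associated kinase used as a marker of tuft and some tumour cells. Cells that sense viral RNA switch on interferon-stimulated genes, which include the machinery that loads peptides onto MHC class I molecules.

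A gene was called particular to CAOV-3 when its difference from each of the 3 other lines passed limma's test with treatment as a covariate and both CAOV-3 arrays lay on the same side of all 6 other arrays. By this rule 1227 genes were higher, which is 10.3% of those tested, and 898 were lower, 7.51%. Without the test, both CAOV-3 arrays lay above all 6 others for 1979 genes (16.5%) and below them for 2262 (18.9%). The same rule applied to OVCAR-3 called 1067 genes higher (8.92%) and 975 lower (8.15%). For SKOV-3 it called 682 higher (5.7%) and 562 lower (4.7%), and for DOV-13 577 higher (4.82%) and 494 lower (4.13%). Without the test, OVCAR-3 had 2075 genes above and 2064 below all other arrays. Within each direction, the order of CAOV-3 and OVCAR-3 therefore depends on the rule. These counts share arrays and were not tested against each other.

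The distance of a gene is the log2 step between the nearest CAOV-3 array and the nearest other array. Its median was 0.61 over the genes higher in CAOV-3 and 0.52 over the lower ones. It was at least 2 for 100 higher and 35 lower genes, and at least 4 for 16 higher and 12 lower genes. OVCAR-3 was the nearest of the other lines for 37.5% of the higher and 43.9% of the lower genes. At the edge of the rule, KIN was called higher at an adjusted p of 0.04964 and MARK2, with both CAOV-3 arrays above all others, was not called at 0.05003. On the low side ADGRL2 was called at 0.04991 and ATP5PF was not at 0.0503.

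A fit that pooled the 6 other arrays as 1 group, so that the spread between the other lines counted as error, called 712 genes higher (5.95%) and 426 lower (3.56%). All but 2 of the higher and all of the lower ones were also called particular. The p-values of this fit are too small because the arrays of a line are not independent. With the treated CAOV-3 array left out it called 107 and 25 genes, and with the untreated one left out 178 and 57. With cell line as a random block 89 genes were higher (0.744%) and 48 lower (0.401%), and on line means none passed. The random block called 136 genes higher and 71 lower in OVCAR-3. Of the 39 genes with the largest distances described below, 37 also passed with cell line as a random block. OLR1 and QPCT did not.

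Epithelial markers were present in CAOV-3. EPCAM, an epithelial adhesion molecule, read 12.55 and 12.58 in CAOV-3, against 8.44 and 8.50 in SKOV-3, 5.94 and 5.42 in DOV-13 and 12.11 and 11.90 in OVCAR-3. Only DOV-13 and SKOV-3 were far below CAOV-3. The step to OVCAR-3 was 0.44, and the mean difference of 3.84 ± 0.12 (SE, adjusted p = 0.0345) was no longer called when any 1 array of CAOV-3 or OVCAR-3 was left out, nor after median centring. CDH1, which encodes E-cadherin, read 9.49 and 9.70 in CAOV-3, against 3.89 and 3.74 in SKOV-3, 3.96 and 3.58 in DOV-13 and 9.52 and 9.41 in OVCAR-3. CAOV-3 and OVCAR-3 overlapped at high levels while SKOV-3 and DOV-13 were near the bottom of the scale, and CDH1 was not called. Among 27 epithelial junction genes and regulators 1 was higher, CLDN7, and 1 was lower, TJP1, with a median difference of 0.93. These shares, 3.7% each, were under the 10.3% and 7.51% over all genes.

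MUC1, a membrane mucin of glandular epithelia, set CAOV-3 apart far more than these. Its level was 12.20 and 11.99 in CAOV-3, against 6.51 and 6.496 in SKOV-3, 5.81 and 5.77 in DOV-13 and 8.32 and 7.89 in OVCAR-3. Both CAOV-3 arrays lay 3.67 or more above every other array, and the difference was 5.30 ± 0.10 (SE, adjusted p = 7.95e-07). MSLN, which encodes the surface antigen mesothelin, was modestly higher, at 6.93 to 6.94 in CAOV-3 and 5.71 to 6.29 in the other lines. None of 14 measured keratins was called in either direction. Without the test, both CAOV-3 arrays lay below all 6 others for 5 of them and above for 1. KRT8 lay below by 0.02 and KRT18 above by 0.17. KRT7 read 11.34 and 11.72 in CAOV-3, against 7.54 and 7.51 in SKOV-3, 12.08 and 12.20 in DOV-13 and 10.62 and 10.62 in OVCAR-3, so that CAOV-3 lay between DOV-13 and OVCAR-3.

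**Figure D1:**
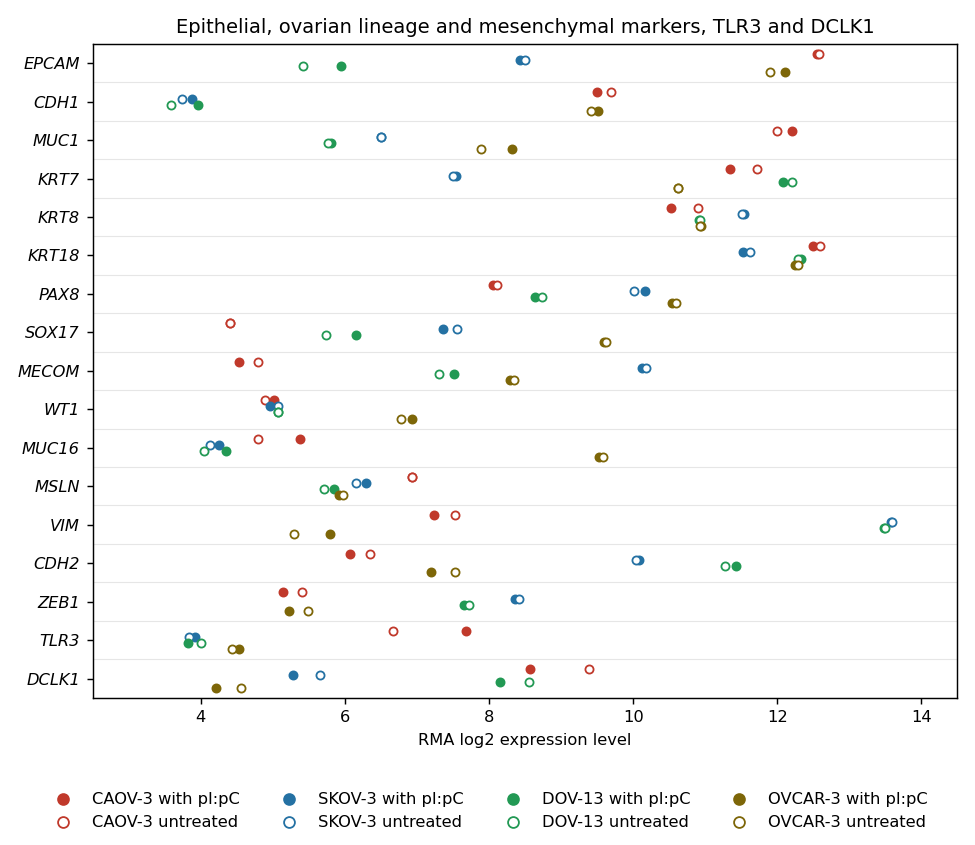
RMA log2 level (horizontal axis) of 17 marker genes in the 8 arrays. Points are single arrays, filled with pI:pC and open without, with CAOV-3 on the top line of each gene. MUC1 and TLR3 lie apart to the right in CAOV-3, PAX8, SOX17, MECOM and CDH2 lie apart to the left, and CDH1 and VIM pair CAOV-3 with OVCAR-3.

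Several Müllerian and ovarian lineage factors were lower. Of 26 measured ovarian carcinoma markers and lineage factors, 4 were higher (MUC1, MSLN, EPCAM, GATA4) and 5 lower (MECOM, SOX17, LHX1, GATA6, PAX8), with a median difference of -0.064. The shares higher and lower were 15.4% and 19.2%, against 10.3% and 7.51% over all genes. In the fit that pooled the other lines 3 higher genes and 1 lower gene, MECOM, passed. With cell line as a random block 1 higher and no lower gene of the list passed. PAX8, the paired-box factor used to diagnose Müllerian tumours, read 8.06 and 8.11 in CAOV-3, against 10.16 and 10.01 in SKOV-3, 8.63 and 8.73 in DOV-13 and 10.54 and 10.60 in OVCAR-3. It was well expressed in all 4 lines but lowest in CAOV-3, by 0.52 at the nearest, with a difference of -1.69 ± 0.08 (SE, adjusted p = 0.00347), and all 8 of its probe sets lay below the other lines. SOX17, its partner factor in these tumours, read 4.41 and 4.41 in CAOV-3, against 7.36 and 7.55 in SKOV-3, 6.15 and 5.74 in DOV-13 and 9.59 and 9.62 in OVCAR-3. In CAOV-3 it was under the lower quartile of all genes, which lay at 5.13 in the treated and 5.16 in the untreated array, and its difference was -3.26 ± 0.12 (SE, adjusted p = 0.000243).

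MECOM, a zinc finger oncogene amplified in many ovarian carcinomas, read 4.54 and 4.80 in CAOV-3, against 10.13 and 10.18 in SKOV-3, 7.51 and 7.31 in DOV-13 and 8.29 and 8.34 in OVCAR-3. CAOV-3 was low and the other lines spanned almost 3 log2 units, with a difference of -3.96 ± 0.10 (SE, adjusted p = 5.77e-06). LHX1, a LIM-homeobox factor of the developing urogenital tract, differed by -3.13 ± 0.09 (SE, adjusted p = 0.00011). WT1, a marker of serous carcinoma, read 5.01 and 4.89 in CAOV-3, against 4.97 and 5.08 in SKOV-3, 5.08 and 5.07 in DOV-13 and 6.94 and 6.78 in OVCAR-3, so CAOV-3 was among 3 lines at the same low level. MUC16, which encodes the CA125 antigen, read 5.38 and 4.80 in CAOV-3, against 4.26 and 4.13 in SKOV-3, 4.35 and 4.05 in DOV-13 and 9.52 and 9.59 in OVCAR-3. It was high only in OVCAR-3, and neither WT1 nor MUC16 was called.

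VIM and ZEB1 were low in CAOV-3 and OVCAR-3 alike. VIM, the intermediate filament of mesenchymal cells, read 7.23 and 7.53 in CAOV-3, against 13.58 and 13.60 in SKOV-3, 13.49 and 13.49 in DOV-13 and 5.80 and 5.30 in OVCAR-3, with OVCAR-3 the lowest. ZEB1, a repressor of E-cadherin, read 5.14 and 5.41 in CAOV-3, against 8.36 and 8.42 in SKOV-3, 7.65 and 7.72 in DOV-13 and 5.23 and 5.50 in OVCAR-3. CDH2, which encodes N-cadherin, was the 1 of 24 mesenchymal genes called (4.17%, against 7.51% called lower over all genes). It read 6.06 and 6.36 in CAOV-3, against 10.08 and 10.04 in SKOV-3, 11.43 and 11.28 in DOV-13 and 7.20 and 7.53 in OVCAR-3, lowest in CAOV-3, and differed by -3.38 ± 0.11 (SE, adjusted p = 0.000739). Its second probe set did not lie apart. CDH2 did not pass in the fit that pooled the other lines (adjusted p = 0.18) or with cell line as a random block (adjusted p = 0.303). SPARC, a matrix protein, was high in CAOV-3 at 11.59 and 11.54 and low only in OVCAR-3, at 5.07 and 5.40.

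The markers of other cell types did not stand out. Of 16 leukocyte markers none was higher, 1 was lower (LAPTM5), and 10 lay under the lower quartile in both CAOV-3 arrays. None of 9 endothelial and none of 6 mesothelial markers was called. Among 23 neural markers the 2 called higher were SCG5 and DCLK1, and among 20 hepatic and intestinal ones AGR2 and TFF1. SCG5, a chaperone of prohormone convertase, read 8.63 and 8.81 in CAOV-3, against 4.79 and 4.68 in SKOV-3, 4.89 and 4.51 in DOV-13 and 4.42 and 4.18 in OVCAR-3. It was near the floor outside CAOV-3 and differed by 4.14 ± 0.11 (SE, adjusted p = 1.44e-06).

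TLR3 read 7.67 and 6.67 in CAOV-3, against 3.92 and 3.84 in SKOV-3, 3.82 and 4.01 in DOV-13 and 4.53 and 4.43 in OVCAR-3. The untreated CAOV-3 array already lay 2.14 above the highest other array, and the treated one was 1.001 higher again. The difference was 3.08 ± 0.20 (SE, adjusted p = 0.000241), and the call held when any array or any other line was left out. In the fit that pooled the other lines TLR3 also passed (adjusted p = 0.00256), but not with cell line as a random block (adjusted p = 0.112). DCLK1 read 8.57 and 9.39 in CAOV-3, against 5.28 and 5.66 in SKOV-3, 8.15 and 8.56 in DOV-13 and 4.22 and 4.56 in OVCAR-3. CAOV-3 and DOV-13 were both high, the step between them was 0.01, and the call was lost with either DOV-13 array left out and with quantile normalization. The other DCLK1 probe set was dim, at 3.80 and 3.95 in CAOV-3 and 4.19 and 4.41 in DOV-13. The line was therefore separated from the others by TLR3, and from SKOV-3 and OVCAR-3 but hardly from DOV-13 by DCLK1. Of 24 Toll-like receptor and RNA sensing genes 5 were higher (TLR3, CD14, EIF2AK2, TLR2, ADAR) and none lower, with a median difference of 0.325. The share higher was 20.8%, against 10.3% over all genes, and none passed with cell line as a random block.

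OLR1, MT1M and TCIM had the largest distances on the high side. OLR1, a scavenger receptor for oxidised low-density lipoprotein, read 12.02 and 9.90 in CAOV-3, against 3.52 and 3.48 in SKOV-3, 3.51 and 3.60 in DOV-13 and 3.54 and 3.48 in OVCAR-3. All 6 other arrays were at the bottom of the scale, the CAOV-3 arrays differed by 2.12 between themselves, and the mean difference was 7.44 ± 0.40 (SE, adjusted p = 4.8e-05). MT1M, a metallothionein, read 10.83 and 10.69 in CAOV-3, against 4.19 and 4.07 in SKOV-3, 4.39 and 4.21 in DOV-13 and 4.11 and 4.20 in OVCAR-3. Its CAOV-3 arrays agreed closely and its difference was 6.57 ± 0.08 (SE, adjusted p = 8.48e-08). TCIM, a small regulator of Wnt signalling, read 9.001 and 9.30 in CAOV-3, against 3.30 and 3.40 in SKOV-3, 3.39 and 3.39 in DOV-13 and 3.50 and 3.39 in OVCAR-3, a difference of 5.75 ± 0.09 (SE, adjusted p = 1.84e-07).

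BHMT2, a methyltransferase that makes methionine, read 10.60 and 10.29 in CAOV-3, against 4.67 and 4.56 in SKOV-3, 4.54 and 4.51 in DOV-13 and 4.83 and 4.70 in OVCAR-3. CSGALNACT1, which starts chondroitin sulphate chains, read 9.71 and 9.504 in CAOV-3, against 3.99 and 3.77 in SKOV-3, 3.79 and 3.88 in DOV-13 and 4.02 and 4.23 in OVCAR-3. These were again on in CAOV-3 alone, by 5.81 ± 0.08 (SE, adjusted p = 1.47e-07) and 5.66 ± 0.10 (SE, adjusted p = 2.71e-07). SLC2A3, the glucose transporter GLUT3, read 11.81 and 11.49 in CAOV-3, against 5.57 and 5.63 in SKOV-3, 6.25 and 6.13 in DOV-13 and 5.37 and 5.38 in OVCAR-3, and its 3 probe sets all lay apart. DIRAS3, an imprinted Ras-related tumour suppressor often silent in ovarian cancer, read 10.02 and 10.39 in CAOV-3, against 4.19 and 4.13 in SKOV-3, 4.34 and 5.03 in DOV-13 and 4.09 and 4.10 in OVCAR-3. It was present in CAOV-3 and near the floor elsewhere, with a difference of 5.89 ± 0.14 (SE, adjusted p = 1.26e-06).

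PON3, a lactonase of the paraoxonase family, differed by 5.28 ± 0.11 (SE, adjusted p = 3.57e-07), and its cluster neighbour PON1 was also on in CAOV-3 alone. CST6, a cystatin that inhibits lysosomal cysteine proteases, differed by 5.24 ± 0.15 (SE, adjusted p = 1.89e-06), and FUCA1, a lysosomal fucosidase, by 4.79 ± 0.08 (SE, adjusted p = 2.03e-07). STEAP4, a metalloreductase, differed by 4.66 ± 0.08 (SE, adjusted p = 1.87e-07). CFI, the complement protease factor I, read 9.65 to 10.22 in CAOV-3 and 4.36 to 5.63 in the other lines, and CYP24A1, the enzyme that degrades active vitamin D, 9.30 to 9.60 in CAOV-3 and 3.77 to 5.35 in the other lines. The others of the 20 were PDE4B, CMAHP, GPX7, QPCT, COL4A6, APOBEC3G and MPZL2, with distances between 3.83 and 4.22. APOBEC3G, an antiviral cytidine deaminase, rests on 1 of its 2 probe sets, since the other read 5.33 in both CAOV-3 arrays and 5.17 to 5.53 in the others.

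**Figure D2:**
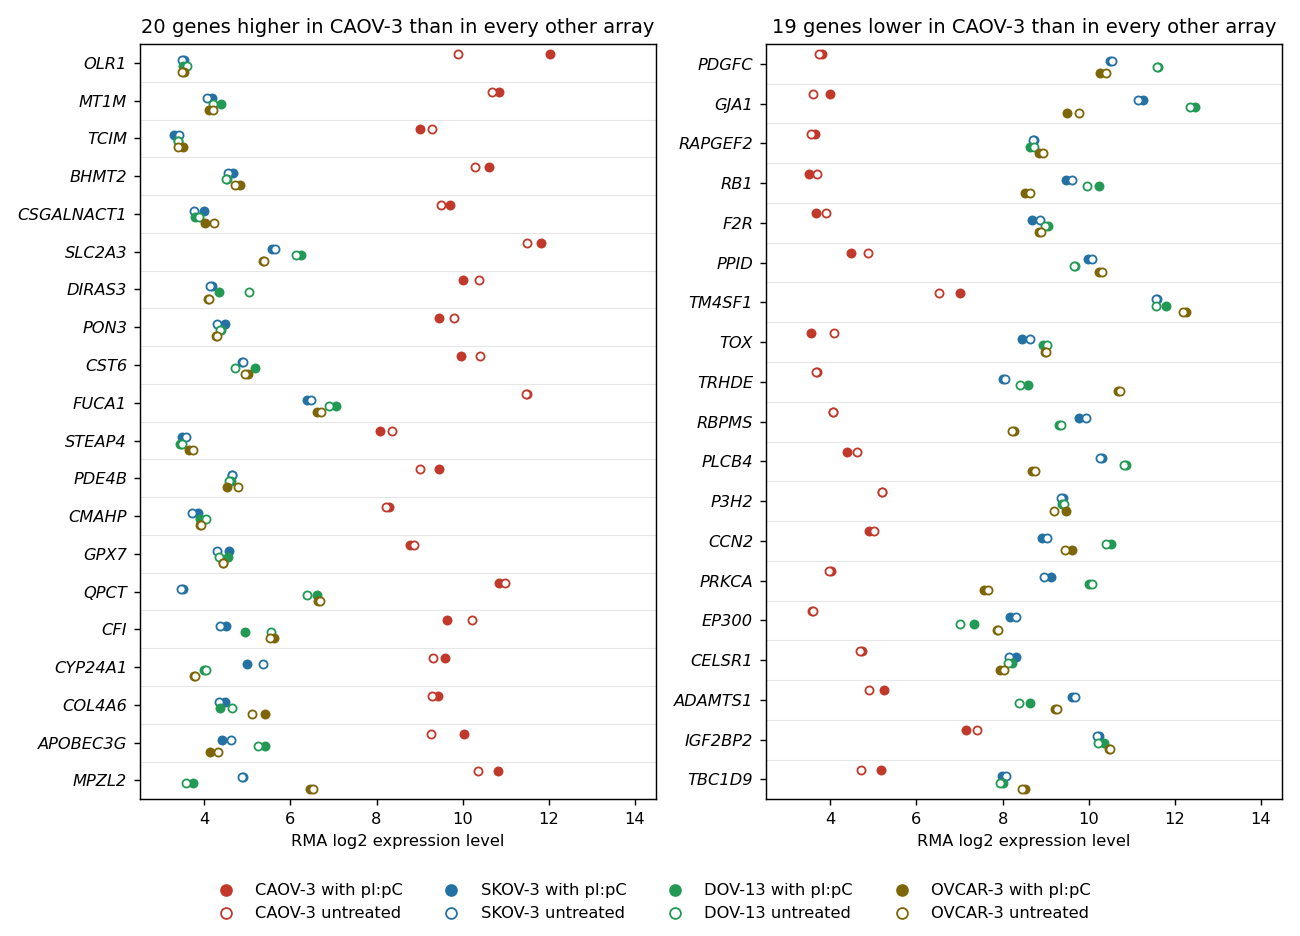
RMA log2 level (horizontal axis) of the 20 higher and 19 lower genes with the largest distance between CAOV-3 and the nearest other array. Points are single arrays, filled with pI:pC and open without, with CAOV-3 on the top line of each gene. The CAOV-3 pair stands clear of the 6 other arrays in every row, by 3.83 (MPZL2) to 6.30 (OLR1) on the left and by 2.78 (TBC1D9) to 6.47 (PDGFC) on the right.

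On the low side the largest distance belonged to PDGFC, a growth factor of the platelet-derived family. It read 3.79 and 3.74 in CAOV-3, against 10.49 and 10.54 in SKOV-3, 11.62 and 11.60 in DOV-13 and 10.26 and 10.39 in OVCAR-3. The transcript was abundant in all 3 other lines and at the floor in CAOV-3, a difference of -7.05 ± 0.07 (SE, adjusted p = 7.83e-08). GJA1, which encodes the gap junction protein connexin 43, read 3.99 and 3.59 in CAOV-3, against 11.26 and 11.15 in SKOV-3, 12.46 and 12.35 in DOV-13 and 9.502 and 9.77 in OVCAR-3, a difference of -7.29 ± 0.12 (SE, adjusted p = 3.57e-07). RAPGEF2, an exchange factor for the small GTPase Rap1, read 3.64 and 3.55 in CAOV-3, against 8.73 and 8.70 in SKOV-3, 8.63 and 8.73 in DOV-13 and 8.84 and 8.94 in OVCAR-3, and all 4 of its probe sets lay below the others.

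RB1, the retinoblastoma tumour suppressor that holds back entry into S phase, read 3.50 and 3.69 in CAOV-3, against 9.47 and 9.62 in SKOV-3, 10.24 and 9.97 in DOV-13 and 8.53 and 8.64 in OVCAR-3. Both of its probe sets lay below every other array, and the difference was -5.82 ± 0.10 (SE, adjusted p = 3.57e-07). F2R, the thrombin receptor PAR1, read 3.67 and 3.89 in CAOV-3, against 8.69 and 8.86 in SKOV-3, 9.05 and 8.99 in DOV-13 and 8.85 and 8.90 in OVCAR-3. PPID, the cyclophilin of the steroid receptor chaperone complex, read 4.47 and 4.88 in CAOV-3, against 9.99 and 10.08 in SKOV-3, 9.68 and 9.66 in DOV-13 and 10.23 and 10.32 in OVCAR-3. All 3 lay under the lower quartile in both CAOV-3 arrays, with differences of -5.82, -5.11 and -5.32.

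EP300, which encodes the histone acetyltransferase p300, read 3.58 and 3.60 in CAOV-3, against 8.16 and 8.31 in SKOV-3, 7.33 and 7.02 in DOV-13 and 7.88 and 7.90 in OVCAR-3. Both probe sets lay apart and the difference was -4.18 ± 0.10 (SE, adjusted p = 1.39e-06). PRKCA, the classical protein kinase C alpha, read 4.01 and 3.97 in CAOV-3, against 9.13 and 8.95 in SKOV-3, 9.996 and 10.07 in DOV-13 and 7.57 and 7.67 in OVCAR-3, and 2 of its 4 probe sets lay apart. PLCB4, a phospholipase C, differed by -5.44 ± 0.08 (SE, adjusted p = 2.92e-07), so that 2 enzymes of phosphoinositide signalling were among the 19. CCN2, a matricellular protein and target of YAP, read 4.89 to 5.02 in CAOV-3 and 8.92 to 10.53 in the other lines, and TM4SF1, a tetraspanin-like surface protein, 6.53 to 7.01 in CAOV-3 and 11.55 to 12.27 in the other lines. The remaining genes of this group were TOX, TRHDE, RBPMS, P3H2, CELSR1, ADAMTS1, IGF2BP2 and TBC1D9. Another gene among the 20 with the largest distances is not reported here.

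An on-or-off description, set after values were seen, gave short lists. In 31 of the higher genes both CAOV-3 arrays were at or above the array median and all others under the lower quartile. In 20 of the lower genes the reverse held. Besides genes named above, the first group held ALPP (placental alkaline phosphatase), the serine proteases TMPRSS3, PRSS21 and PRSS16, NPTX2 and RARRES1. The second held ZSCAN18, ZNF443, PLCE1 and BNC2.

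Interferon-stimulated genes were often higher in CAOV-3. Of 40 measured, 17 were higher and none lower, with a median difference of 1.89 against -0.067 over all genes. The median level of the list was 10.07 in treated and 7.88 in untreated CAOV-3 cells, against 6.49 and 6.27 in SKOV-3, 6.73 and 6.72 in DOV-13, and 7.85 and 6.27 in OVCAR-3. The treated CAOV-3 array thus lay above the untreated one, and treated OVCAR-3 stood next to untreated CAOV-3. In CAOV-3, 27 of the 40 were at least 1 higher in the treated array. The count of 17 was 11 without treatment as a covariate, 7 with limma's trend and robust options, and 27 with OVCAR-3 left out. In the fit that pooled the other lines 15 passed, and with cell line as a random block 1 did.

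BST2, the membrane protein tetherin, read 11.01 and 10.30 in CAOV-3, against 7.03 and 7.002 in SKOV-3, 5.20 and 5.27 in DOV-13 and 6.17 and 4.88 in OVCAR-3. IFITM1, which blocks viral entry, read 12.82 and 12.07 in CAOV-3, against 7.54 and 6.77 in SKOV-3, 6.45 and 6.69 in DOV-13 and 9.21 and 6.22 in OVCAR-3. Treated OVCAR-3 came nearest in IFITM1, and SKOV-3 in BST2. The differences were 4.73 ± 0.24 (SE, adjusted p = 0.000139) and 5.30 ± 0.51 (SE, adjusted p = 0.0013).

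IFI27, an interferon-induced mitochondrial protein, read 12.85 and 11.85 in CAOV-3, against 5.22 and 4.75 in SKOV-3, 9.23 and 8.72 in DOV-13 and 8.53 and 5.33 in OVCAR-3. Its call was lost when the treated DOV-13 array was left out. XAF1, which antagonises the inhibitor of apoptosis XIAP, read 9.97 and 7.72 in CAOV-3, against 5.11 and 5.07 in SKOV-3, 4.99 and 5.13 in DOV-13 and 5.07 and 4.87 in OVCAR-3. It was near the floor in all 6 other arrays and differed by 3.81 ± 0.41 (SE, adjusted p = 0.00153). Among untreated arrays alone, 403 genes (3.37%) were at least 1 higher in CAOV-3 than in any other line and 208 (1.74%) at least 1 lower. In these arrays 18 of the 40 measured interferon-stimulated genes lay at least 1 above the highest other line and none at least 1 below the lowest.

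The sequences upstream of BST2, IFI27 and IFITM1 are shown because these genes led that list. Each is the 250 bases before the gene's start, from RefSeq (GRCh38.p14), read 5′ to 3′ on the gene's strand. Capitals mark a core of the interferon-stimulated response element, 2 copies of GAAA with any 2 bases between them, on either strand, with overlapping matches joined.
BST2 (chr19:17405631-17405880, minus strand): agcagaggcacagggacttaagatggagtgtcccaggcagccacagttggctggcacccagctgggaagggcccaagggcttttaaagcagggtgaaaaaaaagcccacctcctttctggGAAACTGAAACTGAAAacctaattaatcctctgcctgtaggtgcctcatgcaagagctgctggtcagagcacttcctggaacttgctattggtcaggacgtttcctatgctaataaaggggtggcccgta
IFI27 (chr14:94110486-94110735, plus strand): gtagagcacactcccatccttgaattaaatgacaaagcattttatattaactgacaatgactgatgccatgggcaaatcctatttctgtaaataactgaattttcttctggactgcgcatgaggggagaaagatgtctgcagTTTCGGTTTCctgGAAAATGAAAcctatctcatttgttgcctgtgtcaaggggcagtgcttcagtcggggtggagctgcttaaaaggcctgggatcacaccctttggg
IFITM1 (chr11:313790-314039, plus strand): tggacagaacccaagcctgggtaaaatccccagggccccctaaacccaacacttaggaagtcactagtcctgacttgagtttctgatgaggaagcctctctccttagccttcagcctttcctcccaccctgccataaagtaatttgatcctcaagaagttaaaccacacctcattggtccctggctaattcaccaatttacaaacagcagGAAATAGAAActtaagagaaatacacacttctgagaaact
BST2 and IFI27 each held 2 matches and IFITM1 held 1. Over all 35116 upstream windows of the same length 3.02% held at least 1 match and 0.225% at least 2. XAF1 had a window without these letters. A match describes the sequence and does not show that a factor binds there.

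MHC class I presentation genes were also often higher. Of 17 measured, 12 were called higher and none lower, with a median difference of 1.17. HLA-B, a classical class I heavy chain, read 13.17 and 12.47 in CAOV-3, against 10.39 and 10.11 in SKOV-3, 11.14 and 10.9998 in DOV-13 and 9.97 and 9.60 in OVCAR-3. It was abundant in every line and highest in both CAOV-3 arrays, and all 3 probe sets lay apart, with a difference of 2.45 ± 0.11 (SE, adjusted p = 0.000103). PSMB9, a subunit of the immunoproteasome, read 10.23 and 9.03 in CAOV-3, against 6.12 and 5.49 in SKOV-3, 7.89 and 7.66 in DOV-13 and 5.82 and 5.21 in OVCAR-3, with DOV-13 nearest. HLA-C, HLA-F, HLA-G, B2M, TAP1, TAP2, TAPBP, PSMB8, PSME1 and PDIA3 were also called. Probe sets of HLA genes can share sequence, so the single heavy chains are uncertain. In CAOV-3 the list was a median of 0.884 higher in the treated array, and in untreated arrays alone 5 of the 17 lay at least 1 above the others. In the fit that pooled the other lines 6 of the 17 passed, and with cell line as a random block none did (HLA-B adjusted p = 0.0893).

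Of 12 MHC class II genes measured, 6 were higher (HLA-DMA, HLA-DPB1, HLA-DRA, HLA-DQB1, CD74, HLA-DMB) and none lower, with a median difference of 0.588. HLA-DMA, which helps load peptides, read 6.84 and 7.38 in CAOV-3, against 4.58 and 4.74 in SKOV-3, 4.76 and 4.70 in DOV-13 and 4.73 and 5.21 in OVCAR-3, a difference of 2.32 ± 0.12 (SE, adjusted p = 6.42e-05). Its level was not higher in the treated than in the untreated CAOV-3 array. HLA-DPB1 read 6.34 to 6.51 in CAOV-3 and 4.33 to 4.89 in the other lines.

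Of 13 complement genes 7 were higher and none lower, with a median difference of 0.943. With cell line as a random block 1 of them passed. C1R, a protease of the C1 complex, read 10.66 and 9.30 in CAOV-3, against 5.95 and 5.84 in SKOV-3, 6.29 and 6.18 in DOV-13 and 6.12 and 6.16 in OVCAR-3, and C1S, its partner, 10.27 and 8.70 in CAOV-3, against 4.72 and 4.84 in SKOV-3, 5.21 and 4.69 in DOV-13 and 5.94 and 6.07 in OVCAR-3. C1R was 1.36 and C1S 1.57 higher in treated than in untreated CAOV-3, and the untreated array too lay above all others. Their differences were 3.89 ± 0.25 (SE, adjusted p = 0.000139) and 4.24 ± 0.30 (SE, adjusted p = 0.000488). CD55, which protects cells from complement, read 10.53 to 11.84 in CAOV-3 and 7.32 to 8.46 in the other lines, and CFB, C5 and CD46 were also called.

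Among 32 cytokines and chemokines 6 were higher (TNFSF10, IL6, IL18, IL7, CXCL6, CXCL2) and none lower, while the median difference of -0.054 was near that of all genes. The share higher was 18.75%, against 10.3% over all genes. TNFSF10, the death ligand TRAIL, read 10.22 and 10.22 in CAOV-3, against 4.46 and 4.23 in SKOV-3, 4.45 and 4.52 in DOV-13 and 7.07 and 6.43 in OVCAR-3, the same in both CAOV-3 arrays. IL6 read 10.96 and 8.36 in CAOV-3, against 5.98 and 5.999 in SKOV-3, 6.39 and 6.26 in DOV-13 and 6.07 and 5.70 in OVCAR-3, and its treated CAOV-3 array was 2.60 above the untreated one. Of 17 death receptors and caspases 5 were higher (CASP10, TNFRSF21, CASP1, CASP4, BID) and 1 lower, APAF1. Their shares were 29.4% and 5.88%, against 10.3% and 7.51% over all genes. CASP10 lay apart in 1 of its 4 probe sets. CASP10 and APAF1 lost the call with the mean of all probe sets, and BID and APAF1 at the threshold of 0.01. Over all called genes, 49 of the higher and 2 of the lower ones differed by at least 1 between the 2 CAOV-3 arrays, and 46 and 2 of these were higher in the treated array.

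**Figure D3:**
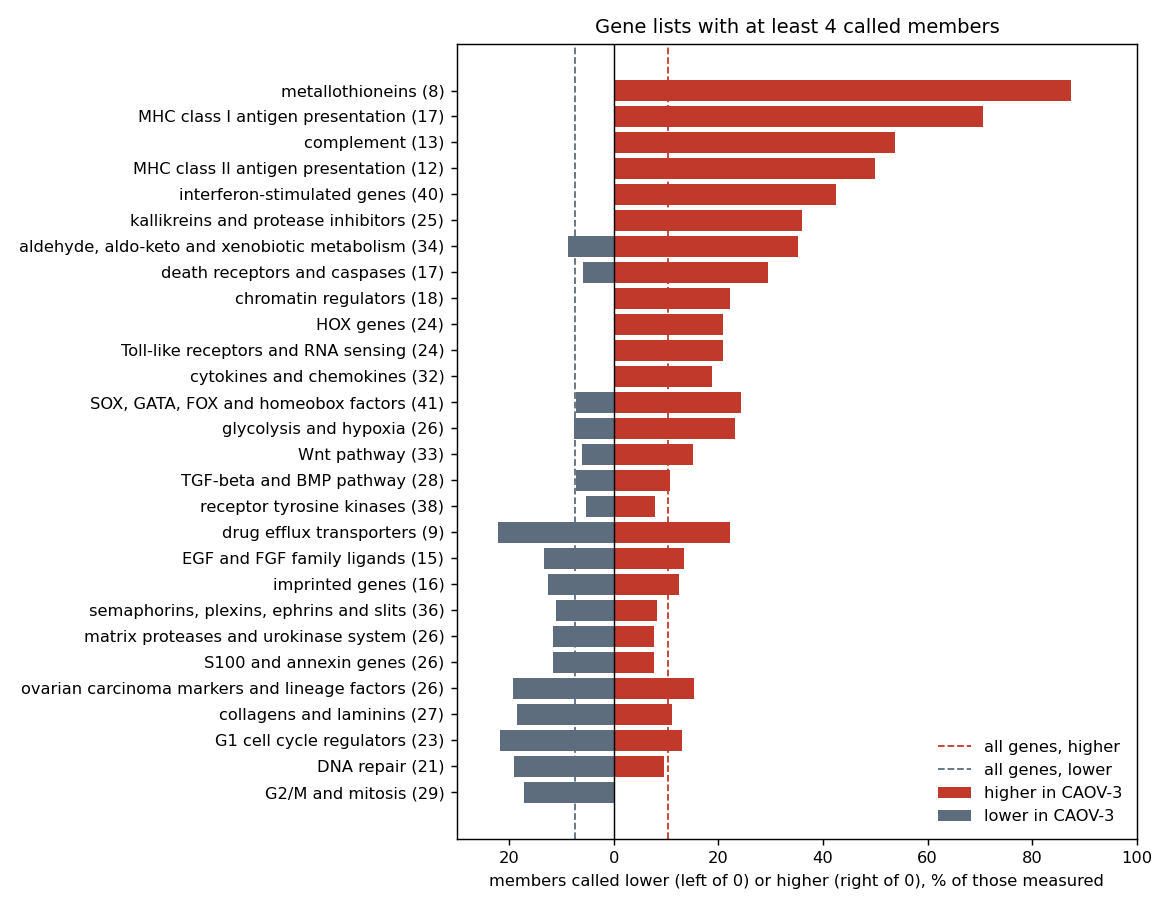
Share of each list's measured genes called higher (right of 0) or lower (left of 0) in CAOV-3, in percent, for lists with at least 4 called members, with the number measured in parentheses. Dashed lines give the shares over all genes, 10.3% and 7.51%. Metallothioneins (7 of 8), MHC class I (12 of 17) and complement (7 of 13) reach furthest right, and G2/M genes are called only on the left (5 of 29).

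Metallothioneins, small cysteine-rich proteins that bind zinc and copper, were the list with the highest share. Of 8 measured, 7 were higher and none lower, with a median difference of 2.27. MT1M is described above. MT1X read 12.93 and 13.02 in CAOV-3, against 11.86 and 11.79 in SKOV-3, 11.67 and 11.62 in DOV-13 and 8.64 and 8.47 in OVCAR-3, and MT2A, the main human isoform, 13.09 and 13.19 in CAOV-3, against 12.41 and 12.43 in SKOV-3, 12.41 and 12.27 in DOV-13 and 9.28 and 9.54 in OVCAR-3. CAOV-3 was highest, SKOV-3 and DOV-13 followed, and OVCAR-3 was far below. MT1X differed by 2.30 ± 0.08 (SE, adjusted p = 0.00014) and MT2A by 1.75 ± 0.09 (SE, adjusted p = 0.00283). MT3, the brain isoform, was the member not called, at 6.17 to 6.29 in CAOV-3 and 6.03 to 6.28 in the other lines. The median treated-minus-untreated difference of the list in CAOV-3 was -0.117.

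The 7 called genes are consecutive measured genes on chromosome 16. Of 12 metallothionein probe sets 9 have names ending in x_at, which Affymetrix gives to sets whose probes can match other genes, so signal may be shared between isoforms in these sets. The probe set of MT1M is not among them. The second MT1G probe set was flat, at 4.23 and 4.32 in CAOV-3 and 4.29 to 4.47 in the others. In the fit that pooled the other lines only MT1M of the list passed, as it did with cell line as a random block (adjusted p = 0.000126).

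Upstream sequences are shown for the 3 called metallothioneins with a window in the RefSeq table, because 7 of the 8 in the group were called. Capitals mark TGCACNC or TGCGCNC, cores of the metal response element, on either strand.
MT2A (chr16:56608334-56608583, plus strand): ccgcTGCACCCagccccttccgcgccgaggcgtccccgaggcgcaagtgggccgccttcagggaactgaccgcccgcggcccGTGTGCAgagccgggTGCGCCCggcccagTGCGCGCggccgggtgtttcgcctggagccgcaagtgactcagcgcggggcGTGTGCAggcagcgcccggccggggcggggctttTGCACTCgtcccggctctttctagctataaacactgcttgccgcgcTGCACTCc
MT1H (chr16:56669564-56669813, plus strand): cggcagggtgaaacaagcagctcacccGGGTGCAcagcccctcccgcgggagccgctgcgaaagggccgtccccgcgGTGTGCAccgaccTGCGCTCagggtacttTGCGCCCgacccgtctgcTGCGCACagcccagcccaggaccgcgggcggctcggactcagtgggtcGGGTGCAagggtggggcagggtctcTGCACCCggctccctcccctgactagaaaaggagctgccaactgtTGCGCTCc
MT1X (chr16:56682220-56682469, plus strand): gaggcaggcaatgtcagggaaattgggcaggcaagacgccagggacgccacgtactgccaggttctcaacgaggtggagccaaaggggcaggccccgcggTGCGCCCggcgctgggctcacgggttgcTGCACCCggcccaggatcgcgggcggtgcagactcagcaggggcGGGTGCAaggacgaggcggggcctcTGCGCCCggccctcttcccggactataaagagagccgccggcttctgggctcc
MT2A held 7 matches, MT1H 8 and MT1X 4. Of all upstream windows 24.8% held at least 1 match and 0.37% at least 4.

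Detoxification enzymes were called in both directions, but mostly higher. Of 34 aldehyde, aldo-keto and xenobiotic metabolism genes 12 were higher (35.3%) and 3 lower (8.82%), with a median difference of 0.514. The share lower was near the 7.51% over all genes. Besides CYP24A1, SULT1A1, a phenol sulphotransferase, read 10.19 to 10.29 in CAOV-3 and 7.46 to 8.31 in the other lines. GCLC, the catalytic subunit that starts glutathione synthesis, read 10.03 to 10.58 in CAOV-3 and 7.57 to 8.76 in the other lines, and its partner GCLM was also called. The glutathione transferases GSTM1, GSTM2, GSTM3, GSTM4 and GSTT1 were higher, whereas GSTA1, ADH5 and TXNRD1 were lower. The second GSTA1 probe set was flat near the floor, and GSTA1 lost the call with the mean of all probe sets. The GSTM genes are close copies of each other, and their probe sets may share signal. Of 9 drug efflux transporters ABCC3 and ABCC5 were higher and ABCC4 and ABCC1 lower (22.2% each, against 10.3% and 7.51% over all genes). The list is small, and none of its genes passed with cell line as a random block.

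Of 25 kallikreins and protease inhibitors 9 were higher and none lower, with a median difference of 1.35. With the random block 1 of them passed. After CST6, SERPINA1, the elastase inhibitor alpha-1-antitrypsin, read 7.90 to 8.42 in CAOV-3 and 4.78 to 5.66 in the other lines. TIMP1, an inhibitor of matrix metalloproteinases, read 12.45 and 12.24 in CAOV-3, against 10.49 and 10.39 in SKOV-3, 9.33 and 9.42 in DOV-13 and 6.98 and 7.01 in OVCAR-3, with SKOV-3 next and OVCAR-3 lowest. KLK6, a serine protease secreted by ovarian carcinomas, read 8.79 to 9.38 in CAOV-3 and 5.06 to 7.06 in the other lines, and KLK5, KLK7, LCN2, SERPINB1 and PI3 were also called. Among 26 matrix proteases 2 were higher (CTSH, PLAUR) and 3 lower (ADAMTS1, ADAM19, ADAM9). These shares, 7.69% and 11.5%, were near those over all genes. The second ADAM19 probe set did not lie apart.

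Basement membrane collagens split. COL4A6 and COL4A5, which form 1 kind of type IV collagen network and lie side by side on the X chromosome, were higher, by 4.63 ± 0.11 (SE, adjusted p = 1.38e-06) and 4.65 ± 0.07 (SE, adjusted p = 6.41e-06). COL4A5 was also high in OVCAR-3 (8.93 in the treated array), so its distance was 1.89, against 3.88 for COL4A6. COL4A1 and COL4A2, which form the common network and are likewise neighbours, were lower, by -2.23 ± 0.07 (SE, adjusted p = 6.69e-05) and -1.76 ± 0.07 (SE, adjusted p = 0.00486). COL4A6 passed in the fit that pooled the other lines (adjusted p = 0.000594). COL4A5 did not (adjusted p = 0.125), nor did COL4A1 (adjusted p = 0.0601) or COL4A2 (adjusted p = 0.183). The laminin chain LAMC1 was lower at 8.25 to 8.38 in CAOV-3 and 10.42 to 11.47 in the other lines. In all 3 of 27 collagen and laminin genes were higher (11.1%) and 5 lower (18.5%), against 10.3% and 7.51% over all genes. The share higher was thus near that over all genes. In the fit that pooled the other lines 1 gene of this list passed in each direction. Of 17 integrins 3 were higher (17.65%, against 10.3% over all genes), ITGB4, ITGA3 and ITGA7, and none lower. No integrin passed with cell line as a random block.

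Cell cycle regulators were divided. Of 23 G1 regulators 3 were higher (CCND3, CDK2, CCNE2) and 5 lower (RB1, CDK4, RBL1, MYC, CDK6). CDK4, a cyclin D kinase, read 9.07 and 9.07 in CAOV-3, against 10.40 and 10.43 in SKOV-3, 10.54 and 10.59 in DOV-13 and 10.49 and 10.41 in OVCAR-3. It was abundant in all lines and lowest in CAOV-3, by -1.41 ± 0.07 (SE, adjusted p = 3.81e-05). CCND3, which encodes cyclin D3, read 10.75 and 10.74 in CAOV-3, against 9.10 and 9.15 in SKOV-3, 7.97 and 8.03 in DOV-13 and 7.77 and 7.72 in OVCAR-3, highest in CAOV-3 by 2.46 ± 0.07 (SE, adjusted p = 1.4e-05). RB1 and its relative RBL1 were both lower, as were the cyclin D kinases CDK4 and CDK6, whereas CDK2, another kinase that acts on RB1, was higher. Of 29 G2/M and mitosis genes none was higher and 5 were lower (DLGAP5, CCNB1, UBE2C, BUB1B, MAD2L1), with a median difference of -0.239. The share lower was 17.2%, against 7.51% over all genes. The median level of the list was 9.48 in treated and 9.93 in untreated CAOV-3, against 9.69 and 9.70 in OVCAR-3. By this median only the treated CAOV-3 array lay below all other arrays, and the untreated array lay above OVCAR-3. CCNE2, MYC, DLGAP5, CCNB1, UBE2C and BUB1B lost the call at the threshold of 0.01.

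Of 24 HOX genes 5 were higher and none lower, led by HOXC6, which read 10.62 and 10.73 in CAOV-3, against 5.25 and 4.88 in SKOV-3, 7.11 and 7.16 in DOV-13 and 7.47 and 7.60 in OVCAR-3. HOXC10 and HOXC13 of the same cluster were also higher but dim. The 5 were 20.8% of the list, against 10.3% over all genes, and none passed with cell line as a random block. HOXD1, another of the 5, lost the call with the mean of all probe sets. Of 41 SOX, GATA, FOX and homeobox factors 10 were higher, among them GATA2, GATA3, FOXA1 and LHX2, and 3 were lower, SOX4, FOXD1 and SOX12. Their shares were 24.4% and 7.32%, the second near the 7.51% over all genes. None of these factors passed with cell line as a random block. Of 15 EGF and FGF family ligands 2 were higher and 2 lower (13.3% each), near the shares over all genes. EGF and TGFA were higher, with EGF at 5.71 to 5.93 in CAOV-3 and 3.87 to 4.31 in the other lines, and NRG1, a ligand of ERBB3 and ERBB4, was lower at 4.99 to 5.15 in CAOV-3 and 7.59 to 10.05 in the other lines. The receptor EGFR was higher by 1.22 ± 0.08 (SE, adjusted p = 0.000266) in the probe set used, and 4 of its 6 probe sets lay apart.

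Of 14 Notch genes JAG2 was higher (7.14%) and JAG1 and NOTCH1 lower (14.3%). For so few genes these shares were near the 10.3% and 7.51% over all genes. The insulin receptor substrates differed in opposite directions, IRS1 higher by 2.25 ± 0.12 (SE, adjusted p = 0.000402) and IRS2 lower by -2.62 ± 0.08 (SE, adjusted p = 2.02e-05). Among 16 listed imprinted genes PEG10 and NDN were higher and PLAGL1 and CDKN1C lower (12.5% each), also near the shares over all genes. DIRAS3, the imprinted gene described above as higher, was not in this list. PLAGL1, a zinc finger growth suppressor, read 3.56 to 3.66 in CAOV-3 and 5.65 to 9.88 in the other lines. The share called was also near that of all genes for receptor tyrosine kinases (3 higher and 2 lower of 38) and TGF-beta and BMP genes (3 and 2 of 28).

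The share of called genes differed between chromosomes, over the 11931 genes that could be placed. The share higher in CAOV-3 was 23.7% on chromosome 22, 19.7% on chromosome 15 and 15.0% on chromosome 7, against 10.3% over all genes. The share lower was 21.0% on chromosome 9, 18.98% on chromosome 21 and 12.8% on chromosome 12, against 7.51%. On chromosome 22 there were 74 higher and 3 lower of 312 genes, and on chromosome 7 there were 81 higher and 5 lower of 539. On chromosome 9 the order was the reverse, with 32 higher and 95 lower of 452. Median differences were 0.192 on chromosome 22, 0.178 on 15 and 0.092 on 7, against -0.189 on 9 and -0.168 on 21. Copy number was not measured, and its part in these shares was not tested.

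**Figure D4:**
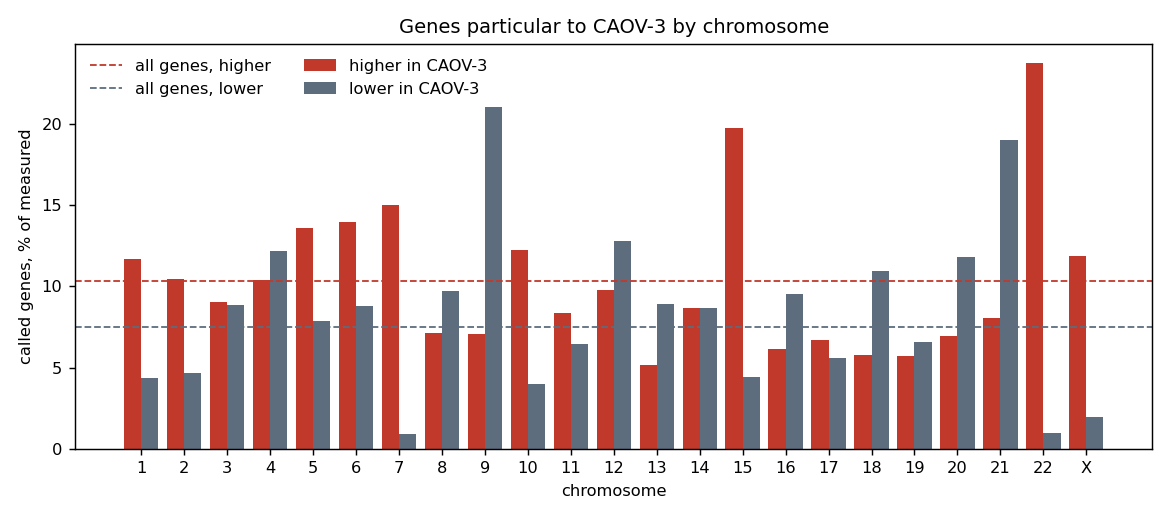
Percent of measured genes called higher (left bar) and lower (right bar) in CAOV-3 on each chromosome (horizontal axis), with dashed lines for all genes at 10.3% and 7.51%. Chromosomes 22, 15 and 7 stand out for higher genes, and chromosomes 9 and 21 for lower genes.

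Some neighbouring measured genes were called together, but how many such runs would be expected from the shares called was not computed. There were 53 runs of at least 3 consecutive measured genes called higher and 38 called lower. The longest higher run had 8 genes on chromosome 22, from IL17RA to PEX26. Within it ATP6V1E1, a subunit of the vacuolar proton pump, read 11.87 and 11.66 in CAOV-3, against 9.20 and 9.22 in SKOV-3, 9.60 and 9.62 in DOV-13 and 9.55 and 9.63 in OVCAR-3, and BCL2L13, a mitochondrial BCL2 relative, differed by 2.12 ± 0.07 (SE, adjusted p = 2.58e-05). The next were the 7 metallothioneins and 6 genes of the MHC on chromosome 6 (HLA-C, HLA-B, MICA, HCP5, HCG26, MICB). MICA and MICB are stress ligands of the NKG2D receptor, and MICB read 10.24 to 10.84 in CAOV-3 and 5.32 to 8.26 in the other lines. The longest lower run had 9 genes on chromosome 12, from ITPR2, a calcium release channel, to CCDC91. Its members were lower by 1.17 (MRPS35) to 3.37 (ITPR2) on the log2 scale. The other 2 long lower runs had 5 genes each, from ERGIC2 to SINHCAF on chromosome 12 and from NEMF to DMAC2L on chromosome 14.

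The stretch from PDGFC to RAPGEF2 on chromosome 4 was picked after the values were seen, because it holds 3 of the genes with the largest distances. Of 8 measured genes in it 5 were called lower: PDGFC, GLRB, ETFDH, PPID and RAPGEF2. GLRB, a glycine receptor subunit, read 4.19 and 4.32 in CAOV-3, against 6.01 and 6.20 in SKOV-3, 7.52 and 7.83 in DOV-13 and 6.05 and 5.90 in OVCAR-3, and ETFDH, a mitochondrial electron transfer enzyme, 4.32 and 4.51 in CAOV-3, against 5.66 and 5.93 in SKOV-3, 6.92 and 6.95 in DOV-13 and 5.74 and 5.77 in OVCAR-3. All 5 were under the lower quartile in CAOV-3. The 3 genes between them that were not called, GRIA2, GASK1B and TMEM144, were at the floor in every line, at 3.41 to 4.05, so a lower level in CAOV-3 was not detectable there.

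**Figure D5:**
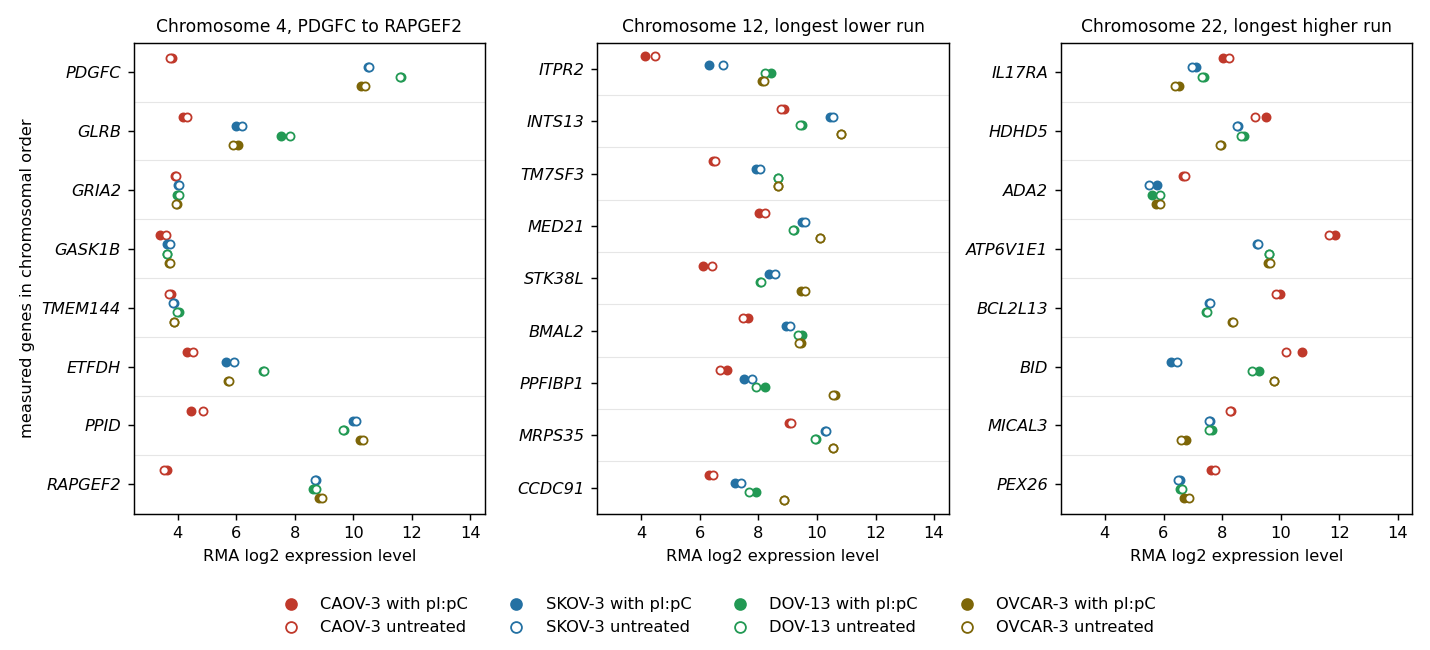
RMA log2 level (horizontal axis) of measured genes in chromosomal order (downwards) in 3 stretches. Points are single arrays, filled with pI:pC and open without, with CAOV-3 on the top line of each gene. On chromosome 4 CAOV-3 stays below 5 for all 8 genes while PDGFC, PPID and RAPGEF2 exceed 8 in the other lines, on chromosome 12 CAOV-3 is left of all others for 9 genes, and on chromosome 22 right of all others for 8.

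RB1 and EP300, examined in the same way after their values were seen, were set beside their measured neighbours. The measured gene before RB1, ITM2B, read 11.54 and 11.34 in CAOV-3 and 10.06 to 11.21 in the other lines. LPAR6, a lysophosphatidic acid receptor whose gene lies in an intron of RB1, was higher, at 5.98 and 6.10 in CAOV-3, against 3.82 and 3.90 in SKOV-3, 4.18 and 4.23 in DOV-13 and 3.90 and 3.88 in OVCAR-3. RCBTB2, the next, was not called, at 4.94 and 5.59 in CAOV-3 and 5.60 to 6.77 in the other lines. On chromosome 22 the genes before EP300 included SLC25A17, ST13 and RBX1, each called higher, by 1.97, 1.32 and 1.99, whereas EP300 was -4.18. XPNPEP3 and RANGAP1, the other neighbours examined, were not called, with differences of 0.53 and 0.45.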

How the data were processed

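Expression of 8 arrays, 1 treated and 1 untreated from each of 4 lines, was deposited by the authors as log2 values per probe set. The submitters' processing notes name RMA as the method, and its version is not given in the sources used here. RMA compresses differences of dim probe sets. Of 22277 probe sets, 19070 carried 1 gene symbol in the platform annotation, 1043 several and 2164 were not named here. Each of 11963 genes was read from its probe set with the highest mean, and 4310 had more than 1.

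Groups came from the labels. limma 3.58.1 (R 4.3.3; lmFit, eBayes) was run on the deposited log2 values with cell line and treatment as terms (3 residual and 4.41 prior degrees of freedom). For each gene the largest of 3 two-sided p-values, CAOV-3 against each other line, was adjusted by Benjamini-Hochberg over all genes, with a threshold of 0.05, and both CAOV-3 arrays had to lie beyond all 6 others. Differences are CAOV-3 minus the mean of the 3 other lines, with limma's SE. The 2 arrays of a line are a treated and an untreated array. p-values therefore measure only the spread between them that is left after a common treatment effect. This spread can hold responses to pI:pC that differ between lines as well as technical error, and it holds no repeat cultures. In a second fit the 2 CAOV-3 arrays were set against the other 6 (5 residual degrees of freedom). The scripts were tested on simulated data.

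Genes named were, per direction, the 20 with the largest distance, up to 4 per list, all called members of the ovarian list, the genes of the 3 longest runs, and fixed markers. Other names were chosen after their values were seen. The members and the 45 lists (953 of 1095 genes measured) were chosen with earlier results of these data known. Of 107 named called genes with more than 1 probe set, all probe sets lay apart in 68, and 13 named called genes had a probe set of opposite sign. Gene order came from RefSeq (GRCh38.p14), and no build is named in the files. Alternatives tried were other probe-set rules, scaling, filters, thresholds, limma options and arrays or lines left out.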

Additional observations from a re-analysis of the deposited data

How the results depend on the processing

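No direction of a called gene named here turned round under any alternative of the fit against each line. Of these 236 genes 128 kept the call in every such alternative that tested them (19 were filtered out at the median level), and 108 lost it in at least 1. Only 50 passed with cell line as a random block, none with line means, and 137 were at least 1 apart in the untreated arrays alone. The largest numbers were lost by asking for a difference of at least 1 from each line (96 genes) and by the threshold of 0.01 (49 genes). Counts of particular genes were 417 higher and 213 lower with differences of at least 1, and 403 and 208 by at least 1 in the untreated arrays alone, which has no test. The lower count was 581 at the threshold of 0.01 and 1736 with OVCAR-3 left out. Median centring gave 1116 in each direction. Leaving out 1 array at a time gave 980 to 1100 higher and 640 to 802 lower genes. In the fit of 2 against 6 arrays the same gave 107 to 584 higher and 25 to 376 lower genes, with the lowest counts when a CAOV-3 array was left out. There, cell line as a random block gave 89 and 48. Line means gave 0 and 0 in limma, with a smallest adjusted p of 0.0508 and 1113 genes at an unadjusted p under 0.05. Of 672 counts per list and alternative, 113 differed from the count reported by more than 1.5 times. The causes were not tested.

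No paired analysis was possible because the labels give no replicate numbers, and treatment, the only factor that lines share, is already a term of the fit.

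With 1 array per line and treatment, a left-out array leaves a line with 1 sample, assumed to vary like the others. Background signal is not given, so levels near the floor have no order, and distances to silent genes are understated. The fits compare CAOV-3 with these 3 lines only. Copy number and repeat cultures were not analysed here.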
